A study of Rosa hybrid cultivar with 12 samples.

Results

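Rose buds that had received both more sucrose and an auxin were compared with buds that had received neither. The 6 libraries of this comparison, out of 12 in the series, were chosen by their treatment labels alone. The treated group had 100 mM sucrose with 1 µM NAA, a synthetic auxin, and the other group had 10 mM sucrose without NAA, with 3 libraries each. They are called both and neither for short, although the neither group also received sucrose at the lower dose. All libraries came from wild-type plants of a hybrid rose cultivar that were raised in a greenhouse and a climate chamber. The tissue label says flower bud while the series title speaks of budburst, so the kind of bud is not settled. No label gives the number of buds or plants behind a library or the length of treatment. The files do not pair gene IDs with names, so the tissue label was not checked against marker genes and no function is given for any gene.

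The series text gives 2 biological replicates while the sample titles number 3 in each group, and all 3 were used. Whether they are independent biological replicates is thus not settled. Libraries of the same replicate number shared a harvest date in the labels, 20 June, 20 August or 20 October of the same year, and were paired by it. The labelled planting date was 29 August for all August libraries, which is after their labelled harvest, and 20 October, the day of harvest, for all October libraries. In the June set it was 2 August in the both group, also after the labelled harvest, and 2 May in the neither group. It was 2 June with 10 mM and NAA, and 2 July, again after the harvest, with 100 mM alone. At least some of these date labels therefore cannot be right as they stand, and the pairing rests on the harvest dates among them. In June, labelled planting date and treatment cannot be told apart. The 6 libraries held between 9146570 and 15896711 gene counts each. One library outside the comparison, replicate 1 of 10 mM sucrose with NAA, stood apart. The top 100 genes held 24.9% of the counts there and 14.1% to 16.9% elsewhere. It entered the estimate of the spread between libraries that all comparisons share. Some results are also given without it, but the single steps and the median levels of gene classes in its group are not.

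Auxin that flows down the stem from a growing shoot tip holds back the buds below it, and this is known as apical dominance. Sucrose acts on the same buds in the other direction, as a carbon source and as a signal, and it promotes their outgrowth in rose. A plant that receives more of each at once is thus exposed to opposed cues. The comparison asks for which genes the pair of treatments did not balance out.

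With both treatments raised, most genes were near their level in the neither group. Of 24267 tested genes, 225 were called (0.927%), of which 150 were higher (0.618%) and 75 lower (0.309%) with both. Calls were made by edgeR's quasi-likelihood test with the harvest date as a block, at a Benjamini-Hochberg adjusted p under 0.05, and all adjusted p-values given are from that test. The log2 fold changes of the genes called higher ran from 0.73 to 6.60 with a median of 1.77. Those of the genes called lower ran from -3.09 to -0.63 with a median of -1.36. Over all tested genes the median was -0.01, and 914 genes (3.77%) reached 1 or more in absolute log2 terms. Of these 914, 729 were not called. The 95% interval of the log2 fold change lay wholly between -1 and 1 for 17485 genes (72.1%), so a doubling or a halving lay outside the interval of each of these genes. The median half-width of that interval was 0.48.

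How many genes were called rested on the pairing and on single libraries. Without the block, a total of 25 genes passed (0.103%), with 20 higher (0.0824%) and 5 lower (0.0206%). All 25 were among the 225 and had kept their sign. Leaving out replicate 1 or 2 of the neither group gave 34 and 44 genes. There were 77, 61 and 129 when replicate 1, 2 or 3 of the both group was dropped, and 509 when the library that stood apart was. In every one of these fits the 225 genes kept their sign, but they were chosen in these libraries and moved the same way on every date. Their sign was thus largely set by the choice.

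Examples were taken by rule, 2 called genes in each direction with the largest fold change among those with at least 4 counts in the lower group. The count rule passes over 2 rising genes with 3 or fewer counts in the neither group. The first of the rising examples, gene:RC3G0412500, was close to silent with neither treatment. It stood at 0.515, 0 and 0.306 CPM (gene counts scaled to the library's effective size) in the June, August and October libraries of the neither group. In the both group it stood at 25.0, 25.4 and 8.94 CPM. The groups did not overlap, and the October library of the both group was the lowest of its 3. The log2 fold change was 6.43 (SE 0.99, adjusted p = 0.0143, and 0.155 without the block). The other rising gene, gene:RC7G0162900, had 4 counts in all over the neither group, at 0, 0.130 and 0.123 CPM. It reached 3.65, 4.30 and 1.35 CPM in the both group, again with October lowest. Its log2 fold change was 4.77 (SE 0.53, adjusted p = 0.00283, and 0.0257 without the block).

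Of the falling genes, gene:RC1G0496100 stood at 8.96, 16.4 and 7.41 CPM in June, August and October with neither treatment. With both it stood at 0.313, 1.16 and 2.32 CPM, so that all 3 libraries lay below those of the neither group. The log2 fold change was -3.09 (SE 0.42, adjusted p = 0.0079, and 0.0451 without the block). The second, gene:RC2G0584000, went from 40.4, 88.8 and 26.8 CPM to 10.6, 2.50 and 4.83 CPM in the same dates. The groups did not overlap here either, and the size of the drop varied between dates, from -1.91 on the log2 CPM scale in June to -5.06 in August. The fitted log2 fold change was -3.04 (SE 0.47, adjusted p = 0.0143, and 0.0572 without the block). The call of gene:RC3G0412500 was lost without replicate 1 or 2 of the neither group, at an adjusted p of 0.121 and 0.104. That of gene:RC1G0496100 was lost without replicate 2 of the both group (0.0647), and that of gene:RC2G0584000 without replicate 2 of the neither group (0.0518) or replicate 3 of the both group (0.0547). No single library cost the call of gene:RC7G0162900, which was lost without all August libraries (0.0944). The highest adjusted p over all alternatives tried was 0.155 for gene:RC3G0412500, 0.0944 for gene:RC7G0162900, 0.158 for gene:RC1G0496100 and 0.155 for gene:RC2G0584000.

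**Figure D1:**
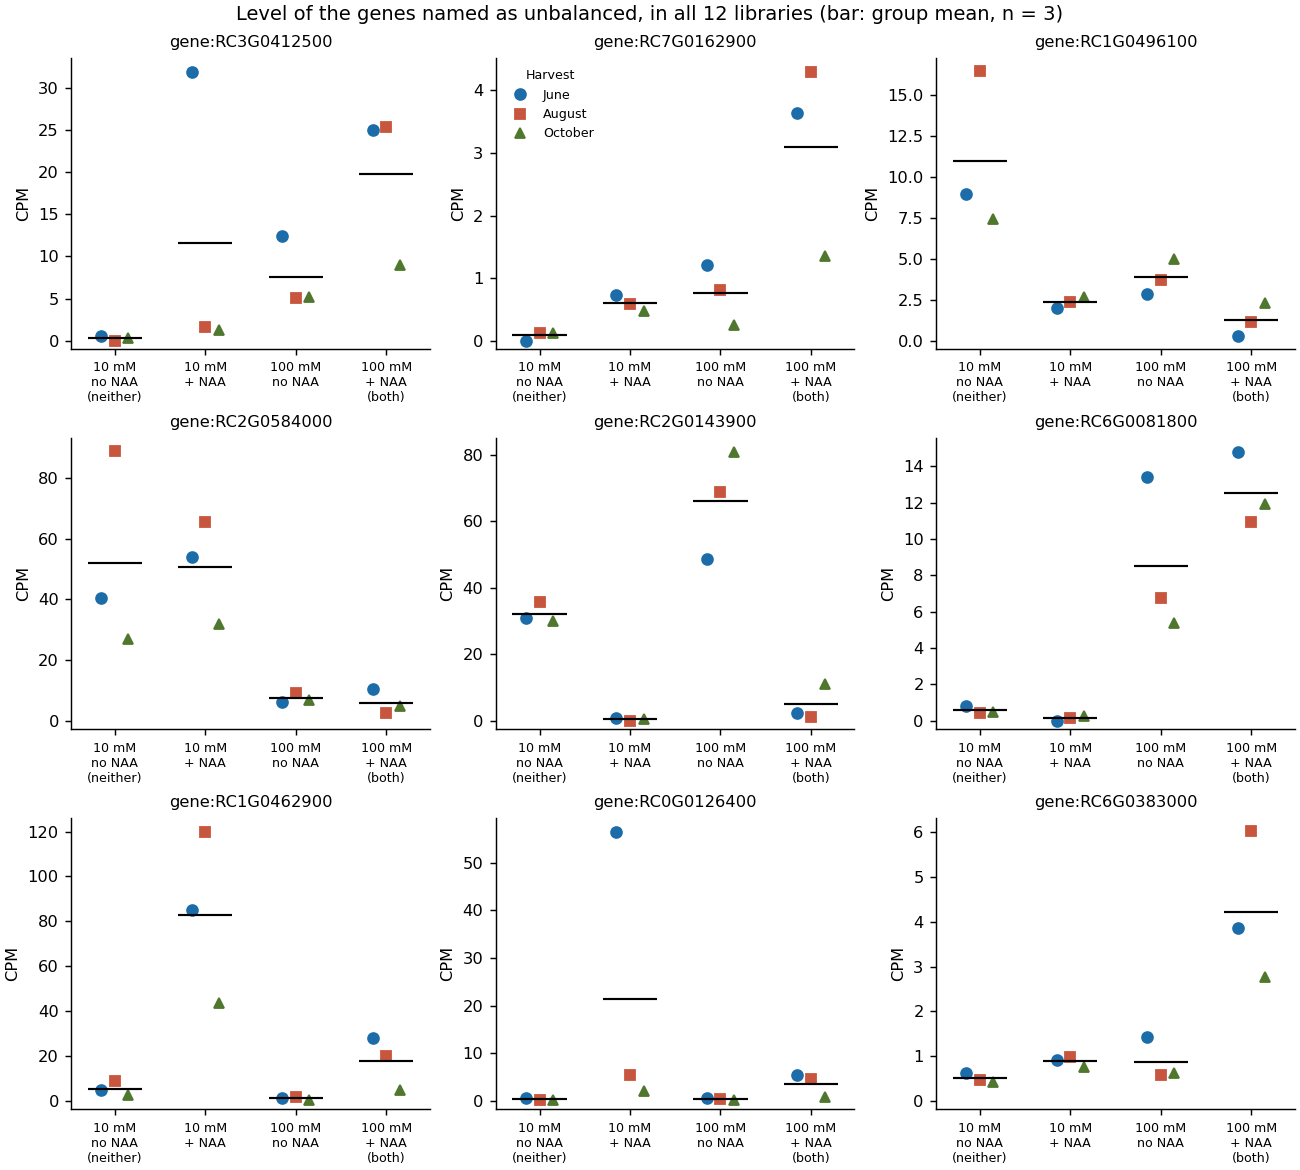
CPM of 9 named genes in all 12 libraries, 1 panel a gene, with the 4 groups on the x axis, symbols for the harvest date and a bar at the group mean (n = 3). In 4 panels the both group holds the highest mean (gene:RC3G0412500, gene:RC7G0162900, gene:RC6G0081800 and gene:RC6G0383000), while gene:RC2G0584000 is low in both groups with 100 mM sucrose.

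The 4 groups form a square, and the remaining 6 libraries give its other diagonal. They set 100 mM sucrose alone against 10 mM sucrose with NAA, which is the contrast of one treatment raised against the other. No library belonged to the groups of both diagonals. The 2 diagonals come from one fit that shares the terms for the harvest date and each gene's estimate of spread. Neither their fold changes nor their calls are thus fully independent. Without the block, gene:RC3G0412500 went from 0.20 to -0.49 on the other diagonal. The other diagonal had 10116 called genes (41.7%), with 5094 higher under 100 mM alone (21.0%) and 5022 lower (20.7%). The count on the side of sucrose was 3374 without replicate 2 of 100 mM alone. In absolute log2 terms 5612 genes (23.1%) reached 1 or more, against the 914 (3.77%) for both against neither. The standard deviation of the log2 fold changes over genes was 1.05 on the former diagonal and 0.46 on the latter. Each of the single steps fell between them in the share of genes called. NAA gave 26.0% at 10 mM sucrose and 8.03% at 100 mM, and the higher sucrose dose gave 5.14% without NAA and 14.7% with it. These steps share libraries with both diagonals.

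**Figure D2:**
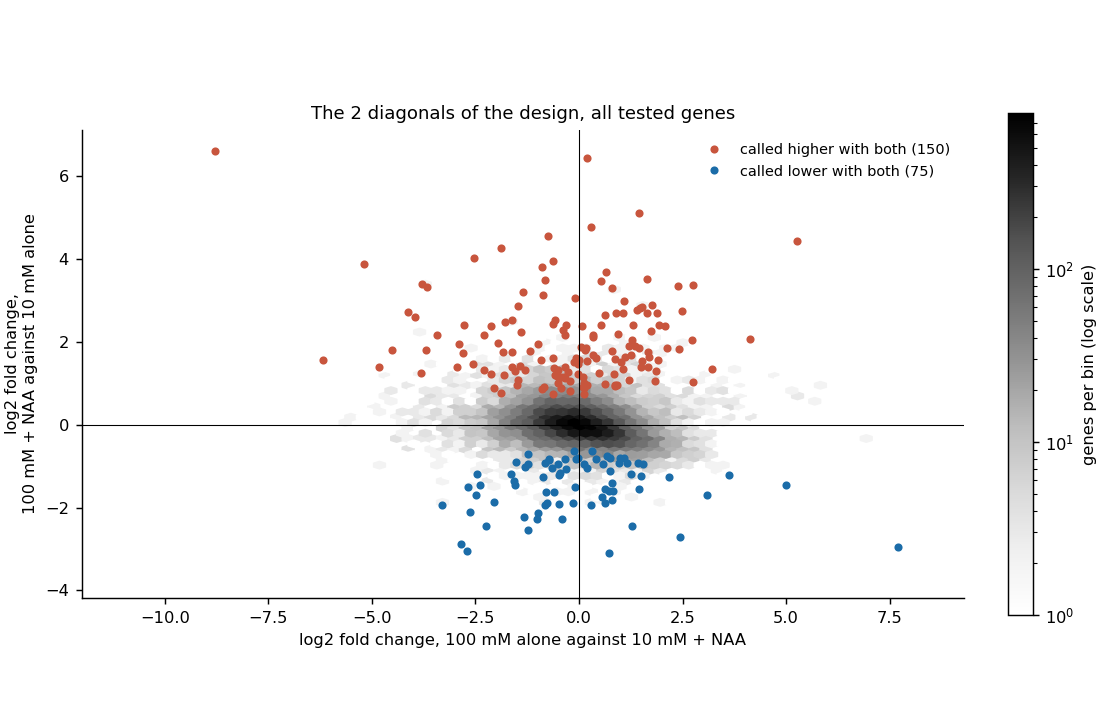
Log2 fold change of each of the 24267 tested genes on the 2 diagonals of the design, with 100 mM sucrose alone against 10 mM with NAA on the x axis and both against neither on the y axis. Grey bins count genes on a log scale, and the coloured points are the 150 genes called higher and the 75 called lower with both. The cloud is wide along x and narrow along y, and the called genes lie on either side of x = 0.

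Genes that the single treatments set apart had medians near 0 when both were raised. The 5094 genes that were higher with 100 mM sucrose alone had a median log2 fold change of 1.00 on that diagonal, and of -0.18 for both against neither. The 5022 genes that were higher with 10 mM and NAA had medians of -1.02 and 0.08. These medians for both against neither moved with single libraries. On the side of sucrose the median ran from -0.23 to -0.10, the latter without replicate 1 of the both group. On the side of NAA it ran from 0.03, without replicate 1 of either group, to 0.12 without replicate 3 of the neither group or replicate 2 of the both group and 0.13 without replicate 3 of the both group. The interval for both against neither lay between -1 and 1 for 3795 genes on the side of sucrose (74.5%) and 3862 on that of NAA (76.9%), against 72.1% of all tested genes. Without replicate 2 of 100 mM alone the count on the side of sucrose was 2432. Of the 5094 genes, 47 were called higher (0.923%) and 24 lower (0.471%) with both. Of the 5022, 51 were called higher (1.02%) and 29 lower (0.577%). These shares lay above those of all tested genes, 0.618% and 0.309%, and of the 14151 genes not called on the other diagonal, 0.367% and 0.155%. The median level was 17.3 CPM for the 5094 genes and 18.8 CPM for the 5022, against 10.7 CPM for all tested genes. The part of level, of the shared date terms and of the shared estimate of spread in these shares was not tested.

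In the fit over all dates, the size of the separation made little difference to the median that was left. Among genes higher with 100 mM alone, the median for both against neither was -0.15 for the 2554 genes with an absolute log2 fold change under 1, -0.25 for the 1931 genes from 1 to 2, and -0.19 for the 609 genes over 2. On the other side the medians were 0.06, 0.10 and 0.14 for 2448, 1828 and 746 genes. Single dates differed. From the smallest to the largest class, the medians on the side of NAA were 0.14, 0.30 and 0.56 in June. In August they were 0.03, -0.003 and -0.19, and in October -0.004, -0.003 and 0.01. On the side of sucrose they were -0.28, -0.45 and -0.36 in June, -0.15, -0.22 and -0.06 in August, and -0.05, -0.07 and 0.02 in October. The spread around the fitted median was wider for the genes set farther apart. The middle 50% of the genes that were over 2 on the side of sucrose ran from -0.57 to 0.50, against -0.27 to -0.02 for those under 1. On the side of NAA they ran from -0.28 to 0.55 and from -0.08 to 0.20. The share whose interval stayed between -1 and 1 was also lower for them, going from 93.8% to 25.5% on the side of sucrose and from 94.3% to 37.1% on that of NAA.

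A small remainder in the direction of NAA was seen for the genes on the side of sucrose, and it differed between dates. Their median for both against neither was -0.33 in June, -0.16 in August and -0.05 in October, while that of all tested genes was -0.01, -0.02 and -0.01. For the genes on the side of NAA it was 0.22 in June, 0.01 in August and -0.00 in October, so the June libraries were the farthest from 0. June is the set in which the labelled planting dates differed between the groups, although not all of those labels can be right. The part of planting date in this remainder was not tested. Of the 5094 genes, 3768 (74.0%) lay below 0 for both against neither, and 61.9% of the 5022 lay above it. Across all genes the 2 diagonals had a Pearson correlation of -0.17 (Spearman -0.27), given as a description over genes, which share libraries and are not independent.

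**Figure D3:**
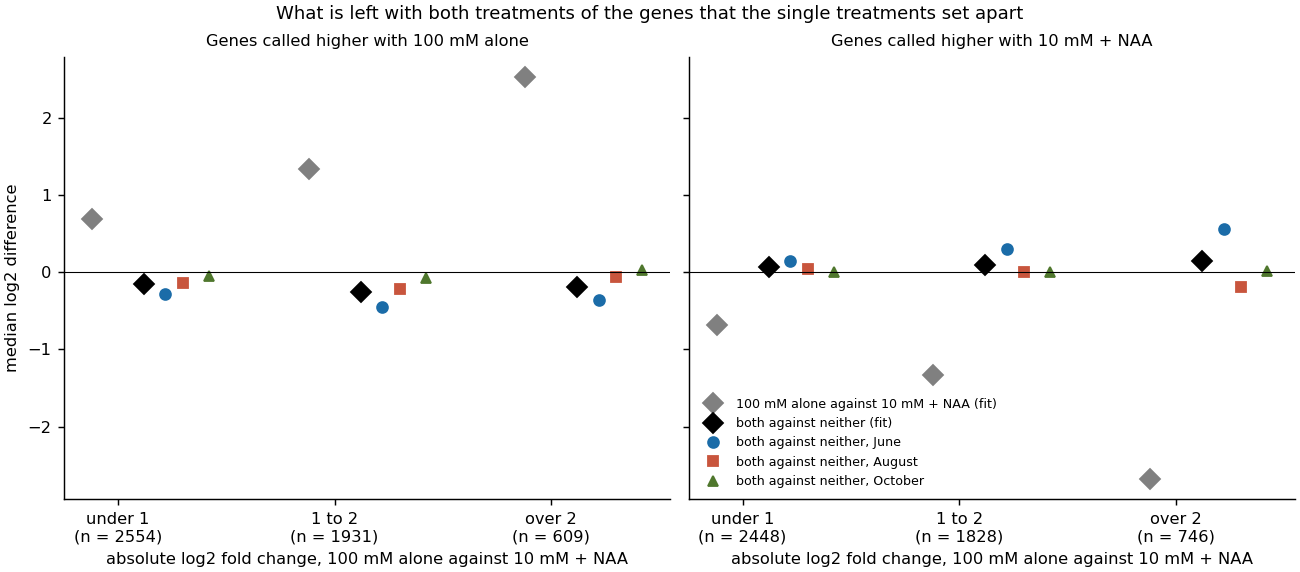
Median log2 difference of the genes called on the diagonal of 100 mM sucrose alone against 10 mM with NAA, in 3 classes of their size there, for that diagonal (grey), for both against neither (black) and for both against neither on each date (coloured). The grey medians run from 0.69 to 2.52 on the left and from -0.68 to -2.68 on the right, while the black ones stay between -0.25 and 0.14.

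Balance is seen best in single genes with a wide separation, and the 2 in each direction whose value for both against neither was nearest 0 are given. The most abundant of these 4, gene:RC5G0463700, had 230.2, 239.7 and 198.7 CPM with neither treatment in June, August and October, and 345.2, 168.7 and 180.0 CPM with both. The groups overlapped, with June higher and August and October lower in the both group. It stood at 549.3, 628.5 and 491.7 CPM with 10 mM and NAA, above all other libraries, and at 103.8, 77.5 and 71.8 CPM with 100 mM alone, below them. Its log2 fold change was -2.75 between those groups (SE 0.23, adjusted p = 1.47e-05). For both against neither it was 0.00, with a 95% interval of -0.47 to 0.47. All 4 single steps were called for it, at 1.32 and 1.42 for NAA at the lower and the higher sucrose dose, and at -1.42 and -1.32 for sucrose without and with NAA (adjusted p = 0.00219 to 0.00476).

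The same rule gave gene:RC1G0022100 on the side of NAA, at -2.66 on the other diagonal and 0.00 for both against neither, but its interval of -1.31 to 1.32 does not show balance. On the side of sucrose it gave gene:RC1G0100600, at 2.84 and -0.01 with an interval of -0.75 to 0.74, and gene:RC1G0358700, at 2.70 and -0.01 with an interval of -0.72 to 0.71. In gene:RC1G0100600, NAA at 10 mM (-2.03, adjusted p = 0.00513) and sucrose with NAA (2.03, 0.0089) were called. NAA at 100 mM (-0.82, adjusted p = 0.166) and sucrose without NAA (0.81, 0.244) were not. In gene:RC1G0358700, the low group was 10 mM with NAA at 0.912, 1.05 and 4.98 CPM, and the other 3 groups ran from 6.72 to 19.2 CPM. The NAA effect was -2.33 at 10 mM (SE 0.38, adjusted p = 0.00236), and at 100 mM the change was -0.38 (SE 0.33, adjusted p = 0.503). The difference between those NAA effects, 1.95 (SE 0.50), was not called (adjusted p = 0.717). Nearness to 0 chose these genes, so it is a description.

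The 225 unbalanced genes divided about evenly by what they did in the other 6 libraries. Of the 150 genes higher with both, 47 (31.3%) were higher with 100 mM sucrose alone, 51 (34.0%) were higher with 10 mM and NAA, and 52 (34.7%) were not called there. Of the 75 lower genes, 24 (32.0%) were higher with 100 mM alone, 29 (38.7%) were higher with 10 mM and NAA, and 22 (29.3%) were not called. Over all tested genes, 21.0% and 20.7% were called in these directions. The calls on the 2 diagonals share the date terms and each gene's estimate of spread, and the part of these in the shares was not tested. The counts rest on the block, without which the 20 higher genes divided as 6, 2 and 12 and the 5 lower ones as 1, 2 and 2. With single libraries left out the 6 counts ran from 8 to 93, 6 to 110, 9 to 126, 1 to 69, 5 to 52 and 3 to 59, with every highest value in the fit without the library that stood apart and no lowest value above 9.

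The median levels of these classes show the shapes. For the 47 genes the median over genes of the group mean rose in steps, from 1.39 CPM with neither to 2.41 with 10 mM and NAA, 6.06 with 100 mM alone and 9.10 with both. For the 51 genes it was 3.05 CPM with neither, 16.9 with 10 mM and NAA, 2.91 with 100 mM alone and 9.40 with both, so that the both group lay below the group with NAA at the lower sucrose dose. For the 52 genes that were not called on the other diagonal it was 3.17, 7.02, 5.45 and 12.4 CPM in the same order. Of the 29 lower genes on the side of NAA, the medians were 50.2 and 50.2 CPM in the groups with 10 mM, and 14.4 and 15.8 CPM in those with 100 mM. For the 24 lower genes on the side of sucrose they were 32.6 and 36.1 CPM in the groups without NAA, and 12.2 and 13.9 CPM in those with it. In each class the choice of the genes fixed the order of both and neither and, for the classes called on the other diagonal, the order of the groups with one treatment raised. The position of one pair of groups relative to the other was not part of the choice.

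**Figure D4:**
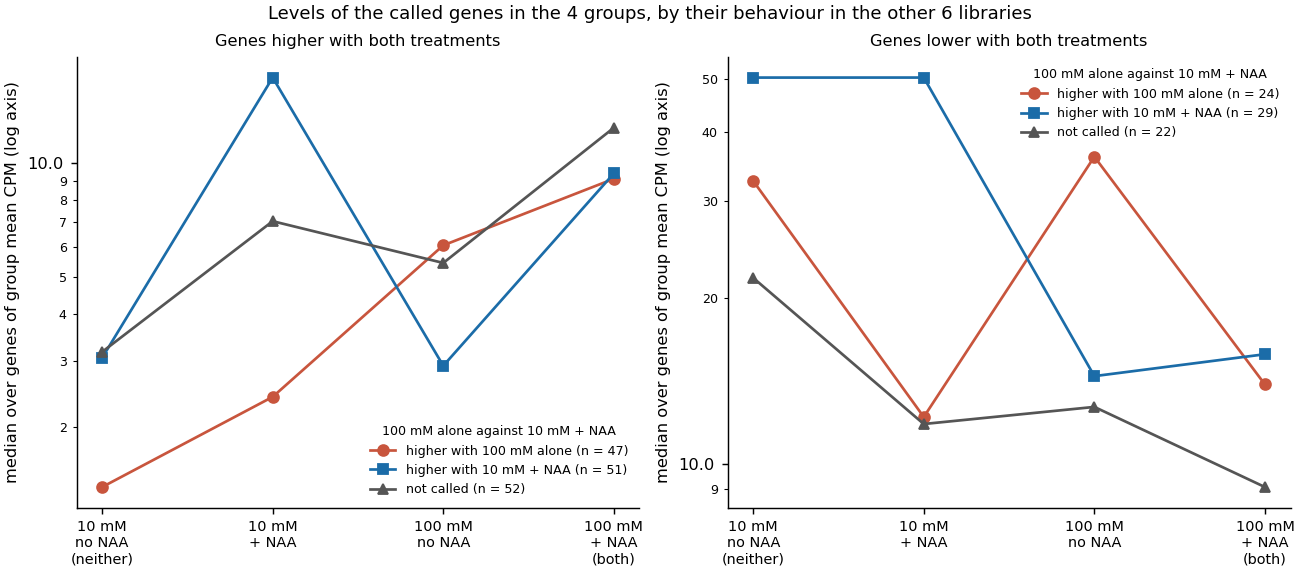
Median over genes of the group mean CPM (log axis) in the 4 groups, for the 150 genes higher (left) and the 75 genes lower (right) with both, each divided by the call of 100 mM sucrose alone against 10 mM with NAA. Lines join the medians of one class. The lower genes form a class that is low wherever sucrose is at 100 mM, a class that is low wherever NAA is present, and a class that is lower in 3 groups than with neither.

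Among genes called on both diagonals, the widest separation on the other one belonged to gene:RC2G0143900 and gene:RC6G0081800 on the side of sucrose. The first stood at 30.8, 35.7 and 30.0 CPM with neither treatment and at 2.40, 1.28 and 11.1 CPM with both, so the groups did not overlap. With 100 mM alone it stood at 48.5, 68.9 and 80.9 CPM, and with 10 mM and NAA at 0.912, 0.0582 and 0.409 CPM. With both, the level thus lay between those of the neither group and of 10 mM with NAA. It differed from the latter by 3.78 (SE 0.83, adjusted p = 0.0138). Against neither the log2 fold change was -2.96 (SE 0.52, adjusted p = 0.0245, and 0.168 without the block). The call was lost without replicate 1 (adjusted p = 0.124) or 2 (0.128) of the neither group and without replicate 1 (0.126) or 2 (0.0941) of the both group. The second took the opposite course. It stood at 0.824, 0.456 and 0.490 CPM with neither and at 14.8, 10.9 and 11.9 CPM with both, a log2 fold change of 4.43 (SE 0.32, adjusted p = 0.000185, and 0.00258 without the block). With 100 mM alone it stood at 13.4, 6.73 and 5.36 CPM. It was the one called gene of those named that was still called in all 22 alternatives tried, with log2 fold changes from 4.29 to 4.63.

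On the side of NAA the rule gave gene:RC1G0462900 and gene:RC0G0126400. The former stood at 4.74, 9.00 and 2.63 CPM with neither and at 27.9, 20.0 and 4.83 CPM with both. The groups overlapped, since the October library of the both group lay below the August library of the neither group, but within each date the level was higher with both. At 10 mM with NAA it reached 85.1, 120.0 and 43.7 CPM, and with 100 mM alone it stood at 1.21, 1.86 and 0.499 CPM. Its log2 fold change for both against neither was 1.57 (SE 0.28, adjusted p = 0.0289, and 0.505 without the block). The latter stood at 0.618, 0.130 and 0.123 CPM with neither and at 5.42, 4.56 and 0.708 CPM with both, a log2 fold change of 3.88 (SE 0.77, adjusted p = 0.0433, and 0.518 without the block). At 10 mM with NAA its 56.5 CPM in June came from the library that stood apart, and August and October were at 5.41 and 2.12 CPM. The call for both against neither was lost in 9 of 22 alternatives for gene:RC1G0462900 and in 12 of 22 for gene:RC0G0126400. For the former, the single libraries that cost it were replicates 1, 2 and 3 of the neither group (adjusted p = 0.190, 0.120 and 0.0543) and replicate 2 of the both group (0.0793). For the latter they were the same 3 (0.311, 0.226 and 0.0569), replicates 2 and 3 of the both group (0.129 and 0.0816), replicates 1 and 2 of 100 mM alone (0.0555 and 0.0671) and replicate 3 of 10 mM with NAA (0.0546).

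A further question is whether the pair of treatments gave a level that no other group had. With both, 14 genes (0.0577%) were called higher than in each of the other 3 groups, and 0 genes were called lower than in each of them. With neither, 10 genes (0.0412%) were called higher and 13 (0.0536%) lower than in each of the other groups, and 6 of these 13 were also among the 14. The count of 0 comes from edgeR with the block, and DESeq2 with the block gave 3. The 3 tests behind each such count share a group, and the counts have no p of their own. The median over the 14 genes of the group mean was 1.62 CPM with neither, 4.55 with 10 mM and NAA, 4.77 with 100 mM alone and 11.9 with both. For the 13 genes it was 5.66, 14.6, 13.4 and 26.5 CPM in the same order. Without the block the counts were 2, 0 and 4 in place of 14, 10 and 13. Leaving out single libraries moved them between 4 and 27, 1 and 15, and 5 and 25. The lowest of these were in the fits without replicate 2 of the both group and, for the latter pair, replicate 1 of the neither group. The count of 0 became 3 without replicate 1 of 10 mM with NAA or replicate 3 of 100 mM alone, and 2 without replicate 3 of the both group.

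Of the 14, gene:RC6G0383000 and gene:RC7G0162900 had the largest margins. The former stood between 0.429 and 1.43 CPM in all 9 libraries of the other groups, at 5 to 17 counts a library. With both it stood at 3.86, 6.04 and 2.77 CPM in June, August and October. Its groups did not overlap. The log2 fold change was 3.05 against neither (SE 0.36, adjusted p = 0.0037), 2.31 against 100 mM alone (SE 0.35, adjusted p = 0.00483) and 2.21 against 10 mM with NAA (SE 0.34, adjusted p = 0.00331). For gene:RC7G0162900, described above, the latter pair were 2.02 (SE 0.40, adjusted p = 0.0137) and 2.30 (SE 0.40, adjusted p = 0.00574). The call of gene:RC6G0383000 against neither was lost in 3 of 22 alternatives. These were the fits without the August libraries (adjusted p = 0.0856), without the October libraries (0.0682), and with only the 6 libraries compared and no block (0.0595). The interaction sets the level with both against what the single effects add up to on the log2 scale, not against a sum of CPM levels. It was 1.46 for gene:RC6G0383000 (SE 0.59, adjusted p = 0.717) and -0.45 for gene:RC7G0162900 (SE 0.73, adjusted p = 0.895). No interaction was called among the 225 genes, nor among all 24267 tested genes, where the smallest adjusted p was 0.717. At an unadjusted p under 0.05 an interaction was found for 19 of the 150 higher genes (12.7%), 10 above and 9 below 0. It was found for 14 of the 75 lower ones (18.7%), 12 above and 2 below 0. Over all tested genes this share was 6.94%, with 1039 genes above and 644 below 0.

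For the called genes, the median difference between both and neither was largest in June and smallest in October. All 225 genes moved the same way on all 3 dates, against 44.5% of tested genes, but they were chosen on these dates. The groups did not overlap for 189 of the 225, whereas over all tested genes the both libraries lay wholly above for 7.06% and wholly below for 8.95%. The median log2 CPM difference of the 150 higher genes was 1.98 in June, 1.81 in August and 1.29 in October. That of the 75 lower genes was -1.40, -1.31 and -1.01. The standard deviation over all tested genes showed the same order, at 0.63, 0.56 and 0.42. The June libraries held the fewest gene counts of those compared, 9881297 with neither and 9146570 with both. The part of depth in this order was not tested. With 1 library per group and date, the differences between dates have no test.

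Genes chosen on 2 dates were also displaced on the third. For each date left out, a fit of the other dates gave the 500 higher and 500 lower genes with the smallest p. In the date left out, the genes chosen as higher had a median log2 CPM difference of 1.22 for June, 0.99 for August and 0.60 for October. The share above 0 was 94.8%, 96.0% and 90.8%, against 49.5%, 46.3% and 47.5% of all tested genes. The genes chosen as lower had medians of -0.62, -0.69 and -0.34, with 83.8%, 95.0% and 90.4% below 0, against 50.5%, 53.7% and 52.5%. Thus the median was farthest from 0 in August for the lower genes and in June for the higher ones. The fits on 2 dates called few genes by themselves, 54 without June, 7 without August and 51 without October. These values are a description with no test.

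**Figure D5:**
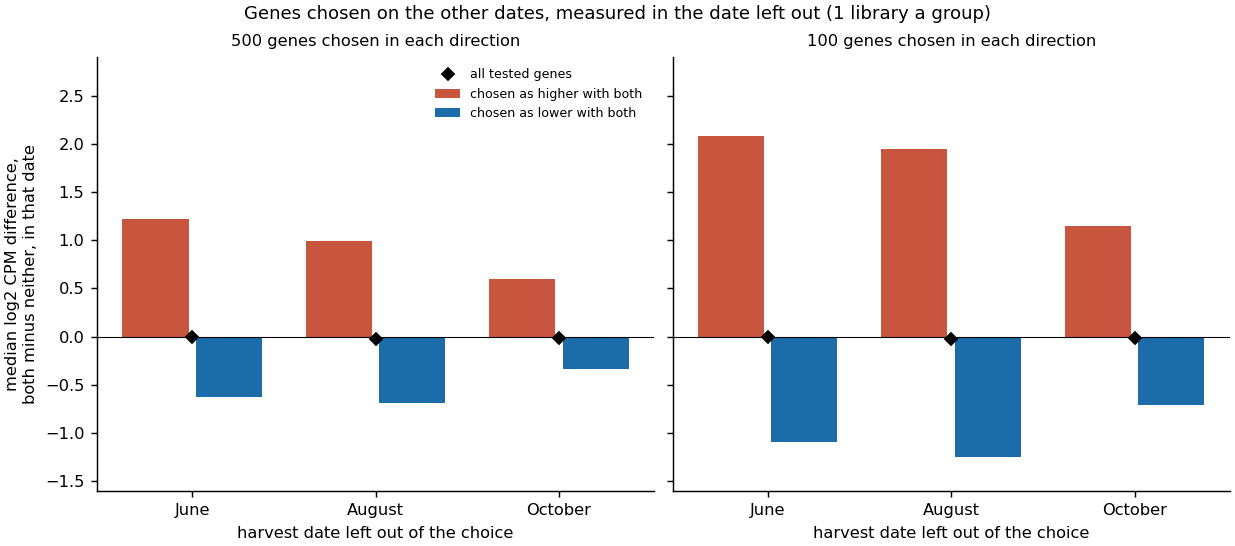
Median log2 CPM difference between both and neither in the date left out, for the 500 (left) or 100 (right) genes chosen in each direction on the other dates. Bars start at 0 and diamonds give all tested genes. The medians have the direction of the choice in each date, and the bars are shortest for October.

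The called genes made up a small part of the gene counts. The 150 higher genes took 0.138% ± 0.00362 of gene counts with neither and 0.419% ± 0.0998 with both, and 0.247% ± 0.0358 with 10 mM and NAA and 0.269% ± 0.0521 with 100 mM alone (SD, n = 3). The 75 lower genes took 0.502% ± 0.0374 with neither, 0.341% ± 0.0155 with 10 mM and NAA, 0.307% ± 0.0227 with 100 mM alone and 0.228% ± 0.0406 with both (SD, n = 3). The order of both and neither follows from the choice of the genes, while the groups with one treatment raised lay between them in each list. Singly, the means of both of those groups lay between the means of both and neither for 91 of the 150 genes (60.7%) and 36 of the 75 (48.0%). Over all tested genes this held for 2065 (8.51%), but the called genes were chosen for a wide gap between both and neither. In bulk samples, fewer cells of a type and less RNA per cell cannot be told apart. By contrast, the 5094 genes on the side of sucrose took 27.9% ± 1.82 with neither and 25.5% ± 3.82 with both, and the 5022 on the side of NAA took 23.1% ± 1.91 and 25.2% ± 4.18 (SD, n = 3). Within dates, the share on the side of sucrose was lower with both on all 3, at 27.2% and 22.1% in June, 26.5% and 24.9% in August, and 29.9% and 29.6% in October (neither, then both). The share on the side of NAA went from 23.1% to 29.3% in June, from 25.0% to 25.5% in August and from 21.2% to 21.0% in October.

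Counts on the opposite strand were looked at as another readout of the same libraries. The forward-strand column passed the filter for 2202 genes, of which edgeR called 4 (0.182%) for both against neither, 2 higher and 2 lower, and 404 (18.3%) on the other diagonal. None of the 4 was among the 225, since on the reverse strand each had at most 3 counts over the 6 libraries and was not tested. Of the 225, 14 could be tested on the forward strand and 0 were called there, with 8 of the 14 in the direction of their reverse-strand change. Of all genes tested on the reverse strand, 1075 could be tested on the forward strand. Of these, 0 were called there and 562 had the direction of their reverse-strand change. At an unadjusted p under 0.05, edgeR found 151 of the 2202 genes. The opposite strand therefore gave the same contrast of few calls between both and neither and more on the other diagonal.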

How the data were processed

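Messenger RNA was sequenced from 12 rose bud libraries in 4 groups of 3. The authors deposited 1 file of raw whole-number counts per gene for each library, counted 3 ways per the file headers (strand ignored, forward, reverse). Per the labels, polyA RNA went into stranded, paired-end libraries. TopHat2 and Bowtie2 are named in the submitters' processing notes. Settings, genome build and annotation are not stated in those notes. The reverse column was used, since forward counts were 3.37% to 5.00% of both strands' gene counts. The 4 summary rows, 17.3% to 23.2% of reads, were left out. Genes with near-identical copies have uncertain counts.

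Counts were fitted in R 4.3.3 with edgeR 4.0.16 (filterByExpr, minimum count 10 and total 15, TMM scaling, quasi-likelihood) over all 12 libraries with group and replicate number as terms. The block is part of the main fit because the labels give libraries of one number the same harvest date. In the check, deviations from group means correlated at 0.385, 0.418 and 0.491 in the 3 pairs compared. Over all 18 pairs of the same replicate number the mean was 0.298, with values from 0.0647 to 0.592. The biological coefficient of variation was 0.187. Intervals are 95%. Log2 CPM used a prior count of 2. The script was tested on simulated data. Replicates of a group differed by more than counting error, and p-values measure the spread between these libraries, which may be partly technical.

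Genes were named by rule: called, at least 4 counts in the lower group, at least 1 CPM in the higher, and the same sign on all 3 dates, then the largest fold change, 2 in each direction per comparison. For balanced genes an absolute log2 of at least 2 on the other diagonal and the value nearest 0 were asked for. The rule also named the leading genes for levels unlike all other groups. Members and comparisons were chosen with earlier results of these data known. Alternatives were DESeq2 1.42.0, its size factors, no filter, no block, single libraries or dates left out, the 6 libraries alone, and the column with strand ignored.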

Additional observations from a re-analysis of the deposited data

Results flagged for a closer look

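The response of gene:RC6G0081800 to NAA had opposite signs at the 2 sucrose doses in every date. Its log2 fold change was -1.46 at 10 mM sucrose (SE 0.57, adjusted p = 0.0828) and 0.63 at 100 mM (SE 0.24, adjusted p = 0.133). By date, the log2 CPM difference was -2.61, -0.88 and -0.59 in June, August and October at 10 mM, and 0.14, 0.69 and 1.13 at 100 mM. The difference itself was 2.09 (SE 0.62) and was not called (adjusted p = 0.717). At 10 mM the gene had at most 8 counts in a library.

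The response of gene:RC0G0126400 to sucrose also had opposite signs without and with NAA. It was 0.49 without NAA (SE 1.10, adjusted p = 0.864) and -1.80 with it (SE 0.51, adjusted p = 0.0367). Without NAA the gene had only 2 to 6 counts in a library, and the log2 CPM differences were 0.08, 0.73 and 0.53 in June, August and October. The differences with NAA were -3.34, -0.24 and -1.39 in June, August and October, and the June value used the library that stood apart. The interaction was -2.29 (SE 1.26, adjusted p = 0.734).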

How the results depend on the processing

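The 225 genes had the same sign in every alternative in which they could be fitted, which their choice in these libraries largely set. The count of calls varied. The labels pair the libraries by harvest date, so the replicate block was kept in the main fit. At least some of the date labels cannot be right, so the pairing is not settled. Without the replicate block 20 genes were called higher and 5 lower, 25 in all. They divided by the other diagonal as 6 (100 mM alone), 2 (10 mM with NAA) and 12 (not called) of the higher genes and 1, 2 and 2 of the lower, and the counts of genes in which one group differed from each other group were 2 for both above, 0 for neither above and 4 for neither below. On the forward strand, edgeR without the block called 0 genes, and 111 had an unadjusted p under 0.05. With only the 6 libraries compared, 322 were higher and 215 lower with the block (537 in all), and 12 and 4 without it (16 in all). With no low-count filter the counts were 247, 135 and 382 in all, divided as 73, 88 and 86 of the higher genes and 47 and 55 of the lower genes called on the other diagonal, and the forward strand gave 6. DESeq2 with the block gave 408, 228 and 636, divided as 102, 150 and 156 of the higher and 86, 75 and 67 of the lower, with 3 genes lower with both than in each other group, 18 higher with neither and 26 lower with neither. Of the 225 genes, 224 were among those 636. DESeq2 size factors gave 220 genes and counts with strand ignored 204.

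Leaving out 1 library moved the calls between 34 and 509, the higher genes between 23 and 329 and the lower between 11 and 180. Leaving out a date gave 7 to 54, 6 to 43 and 1 to 18. The other diagonal ran from 7048 to 10762 calls by library and from 4748 to 9197 by date, with 3374 to 5502 and 2151 to 4718 on the side of sucrose and 3674 to 5260 and 2597 to 4479 on that of NAA. The 6 classes of called genes ran from 8 to 93, 6 to 110, 9 to 126, 1 to 69, 5 to 52 and 3 to 59 by library and from 2 to 15, 1 to 14, 3 to 14, 0 to 4, 1 to 15 and 0 to 3 by date. Genes with an interval between -1 and 1 ran from 2432 to 4278 and 1280 to 3533 on the side of sucrose and from 2801 to 4229 and 1699 to 3412 on that of NAA, while their medians for both against neither ran from -0.23 to -0.10 and -0.24 to -0.12, and from 0.03 to 0.13 and 0.02 to 0.16. Genes in which one group stood apart ran from 4 to 27 and 3 to 6 (both above), 0 to 3 and 0 to 1 (both below), 1 to 15 and 0 to 4 (neither above) and 5 to 25 and 2 to 7 (neither below). With 100 genes in place of 500 chosen in each direction, the medians in the date left out were 2.08, 1.95 and 1.15 for the higher and -1.10, -1.25 and -0.71 for the lower. The cause of these differences was not tested.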
